A study of Mus musculus with 2 samples.

Results

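The genes described here are 10 iron handling genes of the mouse gut: Slc11a2, Slc40a1, Cybrd1, Heph, Tfrc, Fth1, Ftl1, Hmox1, Slc46a1 and Epas1. They were taken by symbol, and all 10 were found among the 32285 genes of both count tables and had counts in the kept cells of both libraries. WT and MG53-TG mice gave 1 library each. Both groups received 2.5% dextran sulfate sodium (DSS), which injures the gut lining, and intestinal cells were collected on day 7. MG53-TG mice carry a transgene for MG53, the membrane repair protein encoded by Trim72, which the study describes as overexpressed throughout the body, and WT mice were their littermates. The study describes several mice in each group, and their age, and whether they were pooled into each library, are not given in the sources used here. Crypt cells were dissociated and sorted for EpCAM on the surface and for exclusion of the dead-cell dye 7-AAD, then captured in droplets for 3′ sequencing. The study also calls the sequenced cells CD45-, a gate that would remove T cells and macrophages, while its sorting steps name EpCAM and 7-AAD.

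Dietary iron enters the body almost wholly through enterocytes of the duodenum. Duodenal cytochrome b (Cybrd1) reduces ferric iron at the brush border, and the divalent metal transporter DMT1 (Slc11a2) carries it into the cell. Ferritin, built of heavy (Fth1) and light (Ftl1) chains, stores what is not needed. Ferroportin (Slc40a1) exports iron at the basal side, where the copper oxidase hephaestin (Heph) loads it for transferrin. Proliferating cells instead take iron from transferrin through the transferrin receptor (Tfrc). Heme oxygenase 1 (Hmox1) releases iron from heme, Slc46a1 carries folate and has been described as a heme carrier, and Epas1 encodes HIF-2α, a hypoxia factor known to raise transcription of Slc11a2, Cybrd1 and Slc40a1 in the duodenum.

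Several of these messages carry an iron-responsive element, a hairpin bound by the iron regulatory proteins, so transcript counts are only one layer of their control. The hairpins are shown because they divide the genes by how iron acts on their messages. GENCODE M21 transcripts (build GRCm38) were searched on the sense strand for C, any 5 bases, CAGTGN, and then 5 bases that pair with the first 5, with G-T pairs allowed and with or without 1 unpaired base on the 3′ side. A match lay in the untranslated regions of 6 of the 10 genes, whereas 4.72% of 21877 protein-coding genes held one anywhere in a transcript. Capitals mark the 6-base loop.
Slc40a1, 5′ UTR in exon 1, chr1:45925471-45925487, minus strand: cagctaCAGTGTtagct
Fth1, 5′ UTR in exon 1, chr19:9982738-9982754, plus strand: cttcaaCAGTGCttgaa
Ftl1, 5′ UTR in exon 1, chr7:45459785-45459801, minus strand: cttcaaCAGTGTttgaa
Epas1, 5′ UTR in exon 1, chr17:86753774-86753791, plus strand, 1 unpaired base: cctcggCAGTGTcctgag
Slc11a2, 3′ UTR in exon 16, chr15:100395158-100395175, minus strand, 1 unpaired base: cagagcCAGTGTgtttct
Tfrc, 3′ UTR in exon 19, chr16:32631225-32631241, plus strand, the first of 4: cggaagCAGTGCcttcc
Elements in the 5′ UTR are known to hold back translation when iron is low, and those in the 3′ UTR of Tfrc to protect the message. Tfrc held 4 such matches, all in exon 19. In Slc11a2 the element lay in 1 of 6 protein-coding transcripts, and 3′ counts per gene cannot tell those transcripts apart here. No match was found in Cybrd1, Heph, Hmox1 or Slc46a1.

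The count table of WT held 158455748 unique molecular identifiers (UMIs, each a counted transcript molecule), against 128227881 in that of MG53-TG. After filtering, 6963 WT and 4941 MG53-TG cells were left, with median depths of 14035 and 17950 UMIs. Of these, 6118 and 4606 were epithelial by their markers. Levels are given as CPM, a gene's count for each 1000000 UMIs counted in the same summed cells. Only 8 barcodes of kept cells occurred in both libraries. Trim72, the transgene, had 63 WT and 4575 MG53-TG UMIs among epithelial cells, or 0.594 and 50.8 CPM, in the direction of the labels. With 1 library per genotype no difference was tested, and the intervals below are exact 95% Poisson or binomial intervals that cover counting error only. Levels were not compared between genes, since 3′ counts were not related to transcript length. Fewer cells of a type and less RNA per cell could not be told apart in a sum over types. T cell-like cells were present in both libraries despite that gate, and their values are given below as those of a type outside the epithelium.

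**Figure D1:**
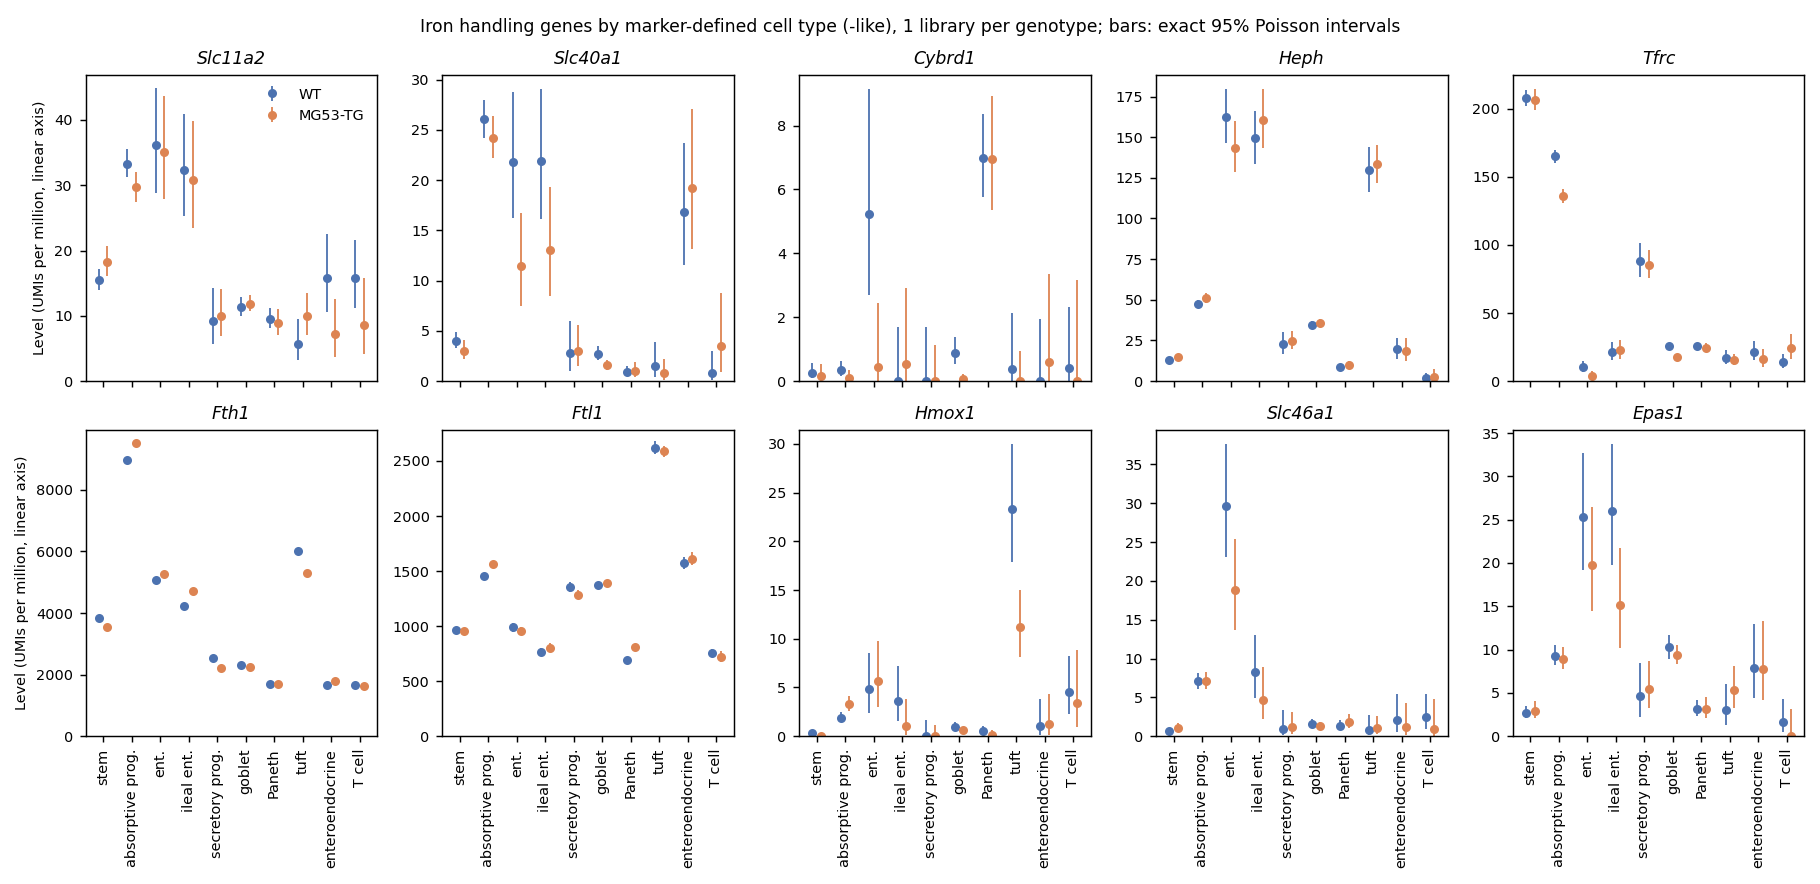
Level of each gene (vertical axis, CPM, linear and starting at 0) in 9 epithelial cell types and T cell-like cells (horizontal axis), with WT in blue and MG53-TG in orange and exact 95% Poisson intervals. Tfrc was highest in stem-like cells, Fth1 in absorptive progenitor-like cells, Ftl1 and Hmox1 in tuft-like cells and Cybrd1 in Paneth-like cells, in both libraries under the 25% mitochondrial limit. Under a 50% limit, Cybrd1 in WT was highest in enterocyte-like cells, at 19.2 CPM.

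Among the genes for uptake at the brush border, Slc11a2 (chr15:100387898-100425072) was highest in enterocyte-like cells, at 36.2 CPM (interval 28.8 to 44.9) in WT and 35.1 CPM (27.8 to 43.7) in MG53-TG. Absorptive progenitor-like cells held 33.3 and 29.7 CPM, ileal enterocyte-like cells 32.4 and 30.9 CPM, and stem-like cells 15.5 and 18.3 CPM. Under the 25% limit on mitochondrial UMIs the absorptive types were thus close together, but under a 50% limit enterocyte-like cells held 135 and 58.4 CPM against 26.7 and 28.0 CPM in absorptive progenitor-like cells. Under the 25% limit, 7 of the 9 neighbouring pairs in the order of types overlapped between libraries. T cell-like cells, where the same carrier is known to move iron out of transferrin endosomes, held 15.8 and 8.60 CPM, and goblet-like cells 11.4 and 11.9 CPM. Slc46a1 (chr11:78465697-78472059) was also highest in enterocyte-like cells, at 29.7 and 18.9 CPM in WT and MG53-TG, against 8.22 and 4.71 CPM in ileal enterocyte-like cells and 0.678 and 1.01 CPM in stem-like cells. Thinned to the least depth of a kept cell, 3.75% of WT and 3.19% of MG53-TG enterocyte-like cells held a Slc46a1 UMI (13.3% and 13.5% unthinned), against 0.627% and 0.315% of T cell-like cells. Median depth was 4055 and 5944 UMIs in the enterocyte-like cells and 2692 and 3420 in the T cell-like cells.

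The place of Cybrd1 (chr2:71117923-71142926) depended on the mitochondrial limit. Under the 25% limit Paneth-like cells, the antimicrobial cells of the crypt base, held 115 of its 163 epithelial UMIs in WT and 63 of 72 in MG53-TG, at 6.97 CPM in each library. Enterocyte-like cells held 12 UMIs in WT (5.23 CPM, 2.70 to 9.14, which overlaps the Paneth-like interval of 5.76 to 8.37) and 1 in MG53-TG (0.439 CPM), too few for a ratio under the minimum of 30 UMIs set here. A Cybrd1 UMI was found in 16.0% of WT and 12.7% of MG53-TG Paneth-like cells before thinning, against 0.125% and 0% of T cell-like cells of lower depth. After thinning it was found in 0.745% and 0.904% of Paneth-like cells and in 0 of 797 and 0 of 317 T cell-like cells, which allows shares of up to 0.462% and 1.16%. The thinned Paneth-like share lay above that limit in WT and within it in MG53-TG, on 4 and 3 cells with a UMI. Its intervals, 0.203% to 1.90% and 0.187% to 2.62%, overlap the T cell-like ranges, and the difference was not tested. Under a 50% limit enterocyte-like cells held 19.2 and 5.70 CPM in WT and MG53-TG, against 6.79 and 6.74 CPM in Paneth-like cells. WT barcodes of 1 to 99 UMIs, which hold free RNA rather than cells, had 4.68 CPM of Cybrd1 (3.11 to 6.77), or 3.05 times the kept WT epithelial level, and the part of free RNA in the Paneth-like level was not tested.

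For export, Slc40a1 (chr1:45908068-45926523) was highest, among the named types and under the 25% limit, in absorptive progenitor-like cells. Under a 50% limit the order turned, with 65.3 and 56.1 CPM in enterocyte-like against 19.5 and 19.6 CPM in absorptive progenitor-like cells. Under the 25% limit its level was 26.0 and 24.2 CPM in WT and MG53-TG there, 21.8 and 11.4 CPM in enterocyte-like cells and 4.03 and 3.03 CPM in stem-like cells. Enteroendocrine-like cells, which secrete hormones, held 16.8 and 19.2 CPM. Within them, the cluster led by Cck, Nts and Gip stood at 36.7 CPM (24.6 to 52.7) in WT and 31.6 CPM (20.7 to 46.3) in MG53-TG. An unnamed cluster led by Fabp6 and Gsdmc4, with 238 WT and 60 MG53-TG cells, had 46.1 and 26.6 CPM. Heph (chrX:96455359-96574485) was high in 3 types: 162 and 143 CPM in enterocyte-like, 149 and 161 CPM in ileal enterocyte-like, and 130 and 133 CPM in tuft-like cells. Tuft-like cells, chemosensory cells of the epithelium, thus held Heph near the absorptive level but Slc40a1 at only 1.53 and 0.761 CPM. T cell-like cells held 2.08 and 2.58 CPM of Heph, on 5 and 3 UMIs.

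Tfrc (chr16:32608920-32632794) was highest in stem-like cells, lower in absorptive progenitor-like cells and lower still in both mature absorptive types, in both libraries. It stood at 208 and 207 CPM in WT and MG53-TG stem-like cells, 165 and 136 CPM in absorptive progenitor-like cells, 21.5 and 22.5 CPM in ileal enterocyte-like cells and 10.0 and 3.95 CPM in enterocyte-like cells. Secretory progenitor-like cells held 88.1 and 85.3 CPM, and goblet-like cells 25.4 and 17.9 CPM.

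The ferritin chains differed in where they were highest. Fth1 (chr19:9980598-9985098) reached 8984 and 9520 CPM in WT and MG53-TG absorptive progenitor-like cells, against 3843 and 3553 CPM in stem-like cells and 1701 and 1704 CPM in Paneth-like cells. Ftl1 (chr7:45457944-45459884) was instead highest in tuft-like cells, at 2622 and 2588 CPM, and next in enteroendocrine-like cells, at 1573 and 1613 CPM. In absorptive progenitor-like cells it stood at 1458 and 1561 CPM. A retrocopy listed as Ftl1-ps1 held 13.05 and 12.3 CPM of the epithelial sums, and reads shared between near-identical copies make the Ftl1 level uncertain by an unknown amount. Hmox1 (chr8:75093621-75100589) was sparse, with 186 and 152 UMIs in all epithelial cells. Tuft-like cells held 61 and 44 of them, or 23.3 CPM (17.8 to 29.97) in WT and 11.2 CPM (8.11 to 14.99) in MG53-TG. Macrophages are a rich source of Hmox1 and Slc40a1. Of 11 macrophage and dendritic markers 8 had a UMI in each epithelial sum, with C1qc and Fcgr1 at 0 in both libraries, and Csf1r and Adgre1 had 1 UMI in each. Their summed level was 11.3 and 9.40 CPM in WT and MG53-TG, of which Cd14 gave 9.65 and 7.98 CPM, and their part in these results was not tested. Epas1 (chr17:86753700-86833410) followed the mature absorptive types, with 25.3 and 19.7 CPM in enterocyte-like, 26.0 and 15.2 CPM in ileal enterocyte-like and 2.71 and 2.95 CPM in stem-like cells.

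Which genes separate the mature from the stem compartment was counted within each library. The stem-like cells joined a cluster led by cell cycle genes (543 WT and 277 MG53-TG cells) and one led by Olfm4 (466 and 210). A gene was called when it was at least 2-fold apart in the same direction in both libraries, with at least 30 UMIs over the pair of types in each library. Between enterocyte-like and stem-like cells, 8 of the 10 genes had enough UMIs. Slc40a1, Heph, Slc46a1 and Epas1 were higher, so 4 of 8, against 17.5% of 10761 genes. Heph was 12.4-fold higher in WT and 9.86-fold in MG53-TG, and Slc46a1 43.7-fold and 18.7-fold. Tfrc alone was lower, at 0.0482 and 0.0191 of the stem-like level, where 36.3% of all genes were called lower. Slc11a2 missed the call, at 2.33-fold in WT and 1.92-fold in MG53-TG. Fth1 and Ftl1 lay within 1.5-fold in both libraries.

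Between absorptive progenitor-like and stem-like cells, 6 of 9 genes were already at least 2-fold higher, against 8.65% of 11450 genes. They were Slc40a1 (6.47-fold and 7.99-fold), Heph (3.62 and 3.50), Fth1 (2.34 and 2.68), Slc46a1 (10.4 and 7.05), Epas1 (3.43 and 3.03) and Hmox1. Hmox1 was 5.55-fold higher in WT. In MG53-TG, where stem-like cells had no UMI, it was 15.1-fold higher against a floor of 3 counts. Stem-like cells held only 8 and 0 of its UMIs against 54 and 71 in absorptive progenitor-like cells, through which it met the minimum. None of the 9 was lower, where 16.7% of all genes were. Goblet-like cells had more Heph than stem-like cells (2.66-fold and 2.46-fold) and more Epas1 (3.78 and 3.17), 2 of 8 genes against 13.5% of 11843, and less Tfrc (0.122 and 0.0867 of the level), 1 of 8 against 23.0%. Set against ileal enterocyte-like cells, enterocyte-like cells had more Slc46a1 (3.61-fold and 4.01-fold), 1 of 8 genes against 1.22% of 7125, and less Tfrc (0.468 and 0.176 of the level), 1 of 8 against 2.76%.

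Genes with the most similar pattern were ranked by Pearson correlation of log2(CPM + 1) over 20 profiles, which were 10 types in 2 libraries, among 9096 genes. The profiles of 1 library share its depth and free RNA, so these values are descriptions. Heph was most like Vil1, a brush border actin bundler (r = 0.97), and Cnksr1 (0.97). Slc46a1 was most like Apoa4, an apolipoprotein of fat absorption (0.96), and Lct, the brush border lactase (0.96). Cybrd1 was most like Gm15293 (0.87) and the Paneth cell defensin Defa23 (0.85). Fth1 paired with Ldha (0.95) and Cbr1 (0.95), and Tfrc with Rbp7 (0.95) and Atad3a (0.94). The closest for Slc11a2 were Acbd4 (0.94) and Tmem37 (0.93), for Slc40a1 Pank3 and Pdzd3 (both 0.93), and for Ftl1 Bad (0.95) and Hsbp1 (0.92). Hmox1 was most like Slc41a3 (0.91) and Tstd3 (0.88), and Epas1 most like Sowahb (0.96) and Sowaha (0.95).

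MG53-TG was set against WT within the injured epithelium. With 1 library per genotype, and with software version and barcode list differing too, genotype cannot be told apart from these. Both libraries came from DSS-treated mice, so no change with injury can be read. In the sum over all epithelial cells, 1 of the 10 genes differed by at least 1.5-fold, against 9.75% of 14672 genes (6.77% higher and 2.99% lower in MG53-TG). Cybrd1 was lower, at 1.54 CPM in WT (163 UMIs) and 0.8002 CPM in MG53-TG (72 UMIs), a log2 ratio of -0.94 (-1.36 to -0.53). Slc40a1 went from 11.96 to 8.40 CPM (log2 ratio -0.51, -0.64 to -0.38) and Tfrc from 110.1 to 79.9 CPM (-0.46, -0.51 to -0.42). Heph stood at 37.1 and 42.9 CPM (0.21, 0.15 to 0.28) and Ftl1 at 1210 and 1337 CPM (0.14, 0.13 to 0.16). Slc11a2 was at 19.3 and 17.6 CPM (-0.13), Slc46a1 at 3.74 and 3.21 CPM (-0.22), Fth1 at 4677 and 4454 CPM (-0.07), Epas1 at 7.45 and 7.71 CPM (0.05) and Hmox1 at 1.75 and 1.69 CPM (-0.05). The direction for Slc46a1 depended on the mitochondrial limit. Under the higher limit used below it was higher in MG53-TG, at 6.73 and 9.08 CPM (0.43, 0.29 to 0.57).

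These sums also move with the mix of cells. Stem-like cells made up 16.5% of WT and 10.6% of MG53-TG epithelial cells, Paneth-like cells 8.78% and 7.21%, and goblet-like cells 25.04% and 38.6%. When the MG53-TG types were weighted as in WT, the log2 ratio was -0.38 for Cybrd1, -0.29 for Slc40a1, -0.16 for Tfrc, 0.08 for Heph and 0.06 for Ftl1. Tfrc in stem-like cells, where it is highest, had a log2 ratio of -0.01 (-0.08 to 0.06), and Cybrd1 in Paneth-like cells had one of -0.00126 (-0.47 to 0.45). The median of all genes in Paneth-like cells was 0.28, and relative to it (median-of-ratios factors) Cybrd1 stood at -0.28 there.

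**Figure D2:**
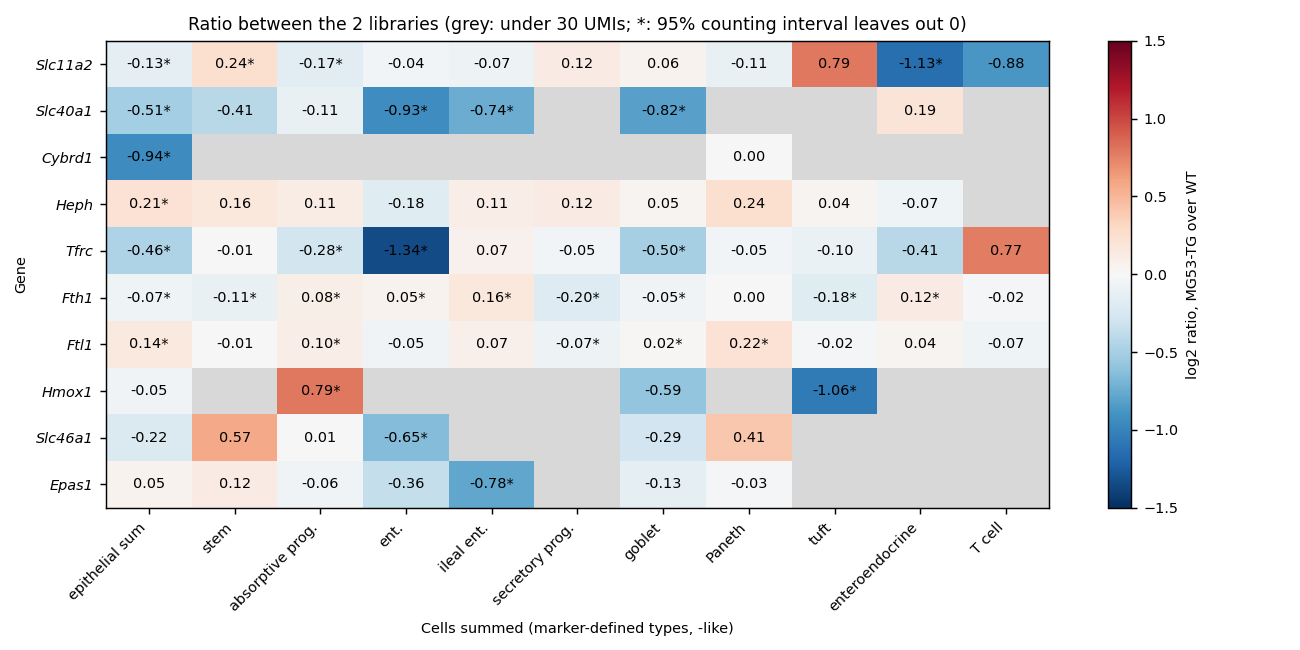
Log2 ratio of MG53-TG over WT for each gene (rows) in the epithelial sum and in each cell type (columns). Blue is lower and red higher in MG53-TG, grey cells had fewer than 30 UMIs and an asterisk marks a counting interval that leaves out 0. Most epithelial types are below 0 for Slc40a1 (5 of 6), Tfrc (8 of 9) and Epas1 (5 of 6), and the enterocyte-like column holds 3 ratios past 1.5-fold.

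The ratios were then taken within types, each of which can still join clusters in different shares. Over the epithelial types 11 ratios passed 1.5-fold, and 1 of them, Hmox1 in tuft-like cells, stayed past it under every alternative run (other scaling, cell filters, doublet handling and clustering). In enterocyte-like cells 3 of 8 genes were at least 1.5-fold lower in MG53-TG, against 5.92% of 7336 genes, and 0 were higher, against 6.22%. Slc40a1 had 50 and 26 UMIs (log2 ratio -0.93, -1.68 to -0.22), and the call held in 5 of 10 alternatives, which ran from -1.10 to 0.38. Tfrc had 23 and 9 UMIs (-1.34, -2.64 to -0.18), and the call held in 6 of 10, from -2.59 to -0.22. Slc46a1 had 68 and 43 UMIs (-0.65, -1.24 to -0.08), and the call held in 5 of 11, from -0.83 to 0.69. These 3 calls thus depend on how cells were filtered and clustered. T cell markers stood at 59.8 and 71.96 CPM in these cells, and their part was not tested.

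In ileal enterocyte-like cells 2 of 7 were lower, against 8.36%. Slc40a1 (48 and 25 UMIs, -0.74) kept the call in 9 of 11 alternatives, from -1.63 to 0.36, and Epas1 (57 and 29 UMIs, -0.78) in 4 of 11, from -0.91 to 0.44. These cells joined 2 clusters, with 283 WT and 100 MG53-TG cells in the first and 127 and 125 in the second. Slc40a1 stood at 32.4 and 41.3 CPM in the first and at 9.11 and 3.50 CPM in the second. These values went opposite ways, but they divide the type's 48 and 25 UMIs, so the direction within each cluster is uncertain.

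Goblet-like cells had 2 of 9 lower, against 3.73%. Slc40a1 (59 and 48 UMIs, -0.82) kept the call in 8 of 11 alternatives, from -1.001 to 0.14, and Hmox1 (20 and 19 UMIs, -0.59, -1.58 to 0.39) in 7 of 11. In absorptive progenitor-like cells Hmox1 was higher (54 and 71 UMIs, 0.79, 0.26 to 1.33), 1 of 9 genes against 3.55%, but at 0.44 without doublet removal. Tuft-like cells had Hmox1 lower (-1.06, -1.66 to -0.48), 1 of 6 genes against 3.83%. Slc11a2 was higher there (15 and 39 UMIs, 0.79, -0.11 to 1.75), 1 of 6 against 5.85%, and at -0.034 without doublet removal. The tuft-like cells joined a cluster of 220 WT and 237 MG53-TG cells, with Slc11a2 at 5.17 and 7.75 CPM, and one of 11 and 44 cells, led by Nrep and Gng13, with 19.96 and 22.2 CPM. Within each cluster the levels were less than 1.5-fold apart, though in the first only just so. These values divide the type's 15 and 39 UMIs, and the second cluster has 11 WT cells. The ratio within each cluster is therefore uncertain, and whether the mix of clusters accounts for the difference over the type was not tested. Enteroendocrine-like cells had Slc11a2 lower (30 and 12 UMIs, -1.13), 1 of 6 against 5.68%. The call held in 8 of 11 alternatives, and the ratio was -0.17 with a higher minimum of UMIs per cell.

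No gene passed 1.5-fold in stem-like, Paneth-like or secretory progenitor-like cells, where 6.24%, 18.7% and 9.57% of all genes did. Of the 55 ratios within 1.5-fold over the epithelial types, 11 passed it under at least 1 alternative, among them Slc46a1 in stem-like cells in 5 of 10. Fth1 and Ftl1 stayed within 1.5-fold in all 9 epithelial types under every alternative. Heph did so except with the 15% mitochondrial limit, when it was at 0.73 in ileal enterocyte-like and 0.67 in secretory progenitor-like cells.

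The limit of 25% mitochondrial UMIs bears directly on these genes. It removed 3755 of 11156 WT and 4402 of 9555 MG53-TG barcodes, and those barcodes held the absorptive iron genes at several times the level of the rest. In CPM of the non-mitochondrial UMIs, Slc11a2 stood at 206 in WT and 103 in MG53-TG over the limit, against 20.6 and 18.6 under it. Cybrd1 stood at 33.2 and 10.1 over the limit and 1.54 and 0.777 under it, Slc40a1 at 83.1 and 97.4 against 12.1 and 9.13, and Slc46a1 at 57.7 and 68.2 against 3.82 and 3.40. Heph was at 148 and 160 against 38.6 and 44.9, and Epas1 at 27.7 and 30.4 against 7.79 and 8.02. Tfrc, Ftl1 and Fth1 went the other way: Tfrc had 34.6 and 22.5 over the limit and 114 and 85.3 under it, Ftl1 527 and 435 against 1281 and 1409, and Fth1 4185 and 3726 against 4860 and 4681. The enterocyte markers Alpi and Lct were also higher there, Alpi at 443 and 584 against 41.3 and 50.5. WT barcodes of 1 to 99 UMIs had 44.7 CPM of Slc11a2 and 14.2 CPM of Slc46a1, or 2.31 and 3.80 times the kept WT epithelial level. The part of damaged cells and of free RNA in these levels was not tested.

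**Figure D3:**
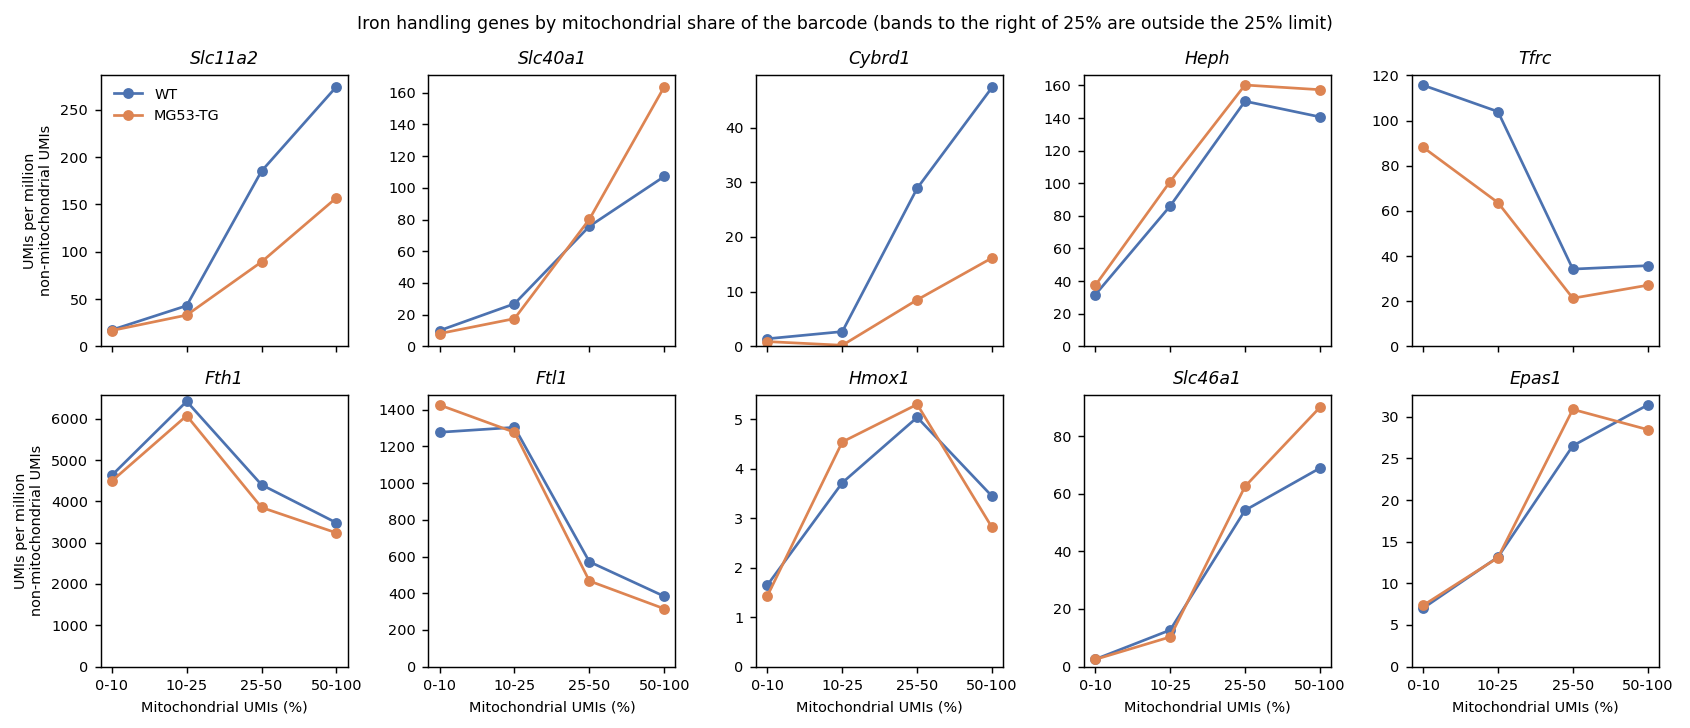
Level of each gene (vertical axis, CPM of non-mitochondrial UMIs, linear and starting at 0) in barcodes grouped by their mitochondrial share (horizontal axis, percent), with WT in blue and MG53-TG in orange. Slc11a2 is at 17.3 in WT and 16.6 in MG53-TG in the lowest band and at 275 and 157 in the highest, and Cybrd1 is higher in WT in every band.

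With the limit raised to 50%, enterocyte-like cells numbered 1934 in WT and 2447 in MG53-TG in place of 347 and 251, and 7 of the 10 genes were at least 2-fold higher in them than in stem-like cells in both libraries, against 16.7% of 11260 genes. Lower were 2 of 10, Tfrc and Ftl1, against 40.9%. Against WT, 3 of 10 genes were then at least 1.5-fold lower in MG53-TG enterocyte-like cells, where 4.97% of 10311 genes were. Slc11a2 was at 135 CPM in WT (1458 UMIs) and 58.4 CPM in MG53-TG (952 UMIs), a log2 ratio of -1.21 (-1.33 to -1.09). Cybrd1 was at 19.2 and 5.70 CPM (-1.75, -2.12 to -1.39) and Tfrc at 16.0 and 9.14 CPM (-0.81, -1.13 to -0.48). Hmox1 was higher, at 2.97 and 4.66 CPM (0.65, 0.04 to 1.29), 1 of 10 against 3.87%. Slc40a1 and Slc46a1, past 1.5-fold under the 25% limit, were now at -0.22 and 0.06. The log2 ratio of Slc11a2 had been -0.04 under the 25% limit. In the sum over all epithelial cells, Slc46a1 went from -0.22 (-0.44 to 0.0026) under the 25% limit to 0.43 (0.29 to 0.57). In ileal enterocyte-like cells 4 of 9 genes were lower under the 50% limit, against 13.8% of 9872 genes: Slc40a1 (-1.63), Tfrc (-1.13), Hmox1 (35 and 7 UMIs, -1.82) and Slc46a1 (56 and 25 UMIs, -0.67). Epas1 there turned to 0.098 (124 and 94 UMIs). Under this limit the type also took in a cluster led by Fabp6 and Gsdmc4, with 205 WT and 54 MG53-TG cells, whose like was unnamed under the 25% limit. Tfrc stood at 149 and 134 CPM in that cluster, at 20.7 and 18.1 CPM in another and at 20.8 and 12.9 CPM in the third, so its ratio over the type moves with the share of each cluster. Slc40a1 stood at 50.4 and 28.5, 40.7 and 36.3, and 4.38 and 1.99 CPM in the same clusters.

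The enterocyte-like cells were next divided by cluster. A single cluster was picked after its values were seen, as the cluster with the highest Slc11a2 level, so its high level is no finding. That level was the WT one, which is also the denominator of the Slc11a2 ratio. The ratio is therefore not independent of the pick. The cluster was the highest of the enterocyte-like clusters in MG53-TG too. It held 267 WT and 551 MG53-TG cells and was led by S100g, the intestinal calcium-binding protein, Akp3, an alkaline phosphatase, and Slc40a1. In WT it made up 3.03% of all cells and held 36.9% of all Slc11a2 UMIs, and in MG53-TG 7.49% of cells and 24.3%. The cluster was not redrawn at other resolutions, doublet handling or UMI minimums, and its intervals cover counting error only. Slc11a2 stood at 663 CPM in WT (1220 UMIs) and 151 CPM in MG53-TG (595 UMIs), a log2 ratio of -2.14 (-2.28 to -1.99). The median cell held 250 CPM in WT and 0 in MG53-TG, and the upper quartile was 850 and 166 CPM. Thinned to the same depth, 38.8% of WT and 14.0% of MG53-TG cells held a Slc11a2 UMI (65.5% and 39.2% unthinned, at median depths of 5725 and 6582 UMIs).

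Other genes of iron absorption and storage were lower in the same cells. Cybrd1 stood at 97.2 and 20.8 CPM (-2.23, -2.62 to -1.84), with UMIs in 45 WT and 26 MG53-TG cells. Slc40a1 was at 354 and 209 CPM (-0.76), Fth1 at 11346 and 5858 CPM (-0.95), Ftl1 at 675 and 390 CPM (-0.79) and Tfrc at 22.3 and 11.7 CPM (-0.93). The median cell was less far apart for the ferritin chains, at 5665 and 3880 CPM for Fth1 and 333 and 251 CPM for Ftl1, both less than 1.5-fold. The WT sum of Fth1 lay above the upper quartile of its cells, 9303 CPM, as did that of Ftl1 (645 CPM). For Slc40a1 the median cell held 241 CPM in WT and 0 in MG53-TG. In all, 6 of 10 genes were at least 1.5-fold lower, against 9.9% of 7685 genes, and 0 were higher, against 7.66%. The 6 include Slc11a2, by which the cluster was picked. Heph (-0.10), Hmox1 (-0.25), Slc46a1 (-0.36) and Epas1 (-0.38) stayed within 1.5-fold. Mitochondrial UMIs made up 34.3% of the cluster's total in WT and 39.8% in MG53-TG. With these left out of the total, the log2 ratio was -2.01 for Slc11a2, -2.10 for Cybrd1, -0.63 for Slc40a1, -0.83 for Fth1, -0.66 for Ftl1 and -0.81 for Tfrc, so the same 6 genes remained past 1.5-fold.

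In the other enterocyte-like cells Slc11a2 was at 26.7 and 28.9 CPM (0.12, -0.12 to 0.36) and Slc40a1 at 5.82 and 7.20 CPM (0.31). Cybrd1 (-1.82) and Tfrc (-0.82) were lower there too, 2 of 10 against 4.67%, and Hmox1 was higher (1.06), 1 of 10 against 4.27%. Whether the libraries sampled the same stretch of gut was not tested. Of 8 proximal small intestine genes with enough UMIs in the cluster, 0 were at least 1.5-fold lower and Gstm3 was higher, with Gata4 at 42.4 and 45.6 CPM and Apoa4 at 2600 and 2495 CPM. Of 4 distal genes 1 was lower and 0 were higher, the lower one being Fabp6, an ileal bile acid binder (13.04 and 3.29 CPM, -1.98, -3.08 to -0.95). In the other enterocyte-like cells 2 of 7 distal genes were lower, with Fabp6 at 15.9 and 5.34 CPM. Among the genes that led the cluster or mark enterocytes, S100g (-0.90), Reg1 (-1.10) and Fabp1 (-0.79) were lower as well, while Alpi (-0.16) and Akp3 (0.23) were within 1.5-fold.

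**Figure D4:**
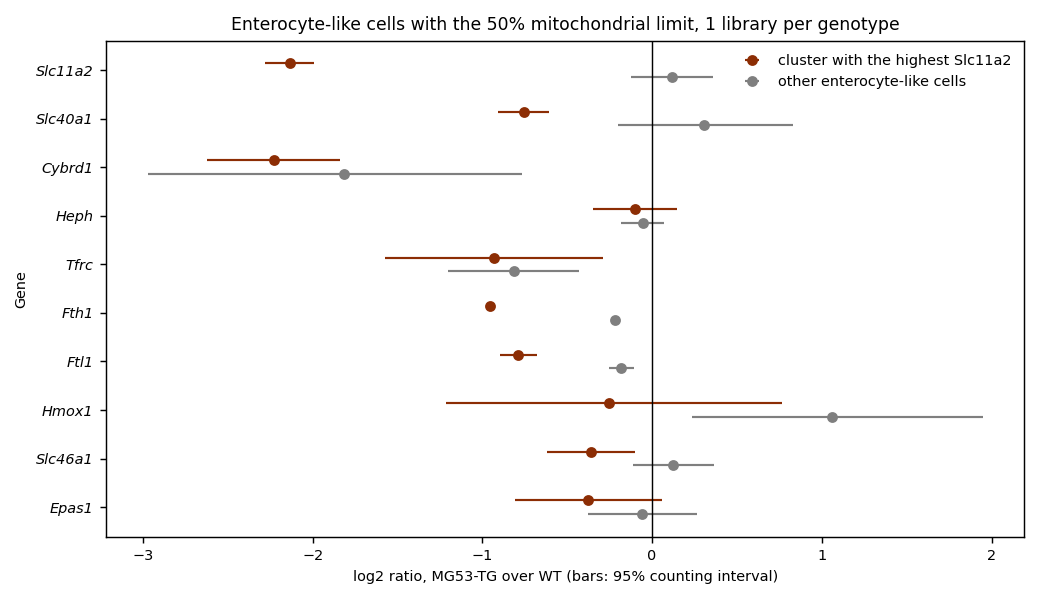
Log2 ratio of MG53-TG over WT (horizontal axis) with its 95% counting interval for each gene, in the enterocyte-like cluster with the highest Slc11a2 (brown) and in the other enterocyte-like cells (grey), under the 50% mitochondrial limit. Slc11a2 sits at -2.14 in the cluster and 0.12 outside it, while Cybrd1 and Tfrc are left of 0 in both.

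Genes around iron handling were read from 7 lists with 110 further genes, among them hypoxia genes, other metals and targets of the stress factor Nrf2 that do not handle iron, and 95 had at least 30 UMIs in the epithelial sum. At least 1.5-fold higher in MG53-TG were 3: Slc7a11, the cystine carrier of the Nrf2 list (1.56 and 5.56 CPM, log2 ratio 1.83), Bmp6, an inducer of hepcidin (11 and 27 UMIs, 1.53), and the transporter Flvcr2 (29 and 43 UMIs, 0.81). At least 1.5-fold lower were 3: Lcn2, the siderophore-binding lipocalin (24.5 and 6.85 CPM, -1.84), the hypoxia-induced Ankrd37 (3.68 and 2.23 CPM, -0.72) and glutathione reductase, Gsr, of the Nrf2 list (76.9 and 51.2 CPM, -0.59). The 3 higher and 3 lower of 95 compare with 6.77% and 2.99% of all genes. The median log2 ratio was -0.02 for 10 entry and exit genes, 0.08 for 14 storage and sensing genes, 0.06 for 17 heme genes, 0.01 for 17 mitochondrial iron-sulfur genes and -0.00395 for 17 hypoxia genes, against 0.09 for all genes. Of the iron sensors, Aco1 was at 46.1 and 47.5 CPM, Ireb2 at 29.5 and 33.8 CPM and Fbxl5 at 41.3 and 47.9 CPM.

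Between enterocyte-like and stem-like cells, the list of other metals had 6 of 10 genes at least 2-fold higher in both libraries and 0 lower, where 17.5% of all genes were higher and 36.3% lower. The 6 were Slc30a1, Slc30a10, Slc39a4, Atp7a, Atp7b and Slc31a1, all metal transporters, with the manganese exporter Slc30a10 at 67.6 against 1.44 CPM in WT. Slc39a5 (70.7 against 84.9 CPM in WT), Mt1, Mt2 and Atox1 were not called. Of 16 heme genes 3 were higher and 7 lower, and of 17 iron-sulfur genes 3 and 5, shares near those of all genes. Of 8 entry and exit genes 3 were higher and 4 lower, and of 11 storage and sensing genes 3 and 3. Of 15 hypoxia genes the counts were 4 and 3, and of 10 Nrf2 targets 3 and 2.

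In the cluster with the highest Slc11a2, the hypoxia list had 4 of 13 genes at least 1.5-fold lower in MG53-TG and 0 higher, where 9.9% and 7.66% of all genes were. They were Ankrd37 (16.8 and 2.53 CPM, log2 ratio -2.73), Car9, a carbonic anhydrase (74.4 and 33.4 CPM, -1.15), Egln3, a prolyl hydroxylase of HIF proteins (20.6 and 10.1 CPM, -1.03), and Pdk1 (18 and 25 UMIs, -0.63), whose interval of -1.56 to 0.33 spans 0. Vegfa (52.7 and 61.6 CPM) and Ndrg1 (21.7 and 22.8 CPM) were within 1.5-fold. The median over the 13 hypoxia genes was -0.36, against -0.01 over all genes tested in the cluster. In the other enterocyte-like cells 2 of 15 hypoxia genes were lower and 0 higher, with a median of -0.25 against 0.02, where 4.67% and 4.27% of 9961 genes were lower and higher, so the list was below the median of all genes in both. Of the other lists in the cluster, storage and sensing had 2 of 9 genes lower, among them Ncoa4, the receptor that sends ferritin for degradation (199 and 109 CPM, -0.86), and other metals 1 of 10, the zinc importer Slc39a4 (60.8 and 24.3 CPM, -1.32). Heme had 2 of 13 lower and 1 higher, iron-sulfur 3 of 15 and 1, Nrf2 targets 2 of 9 and 0, and entry and exit 0 of 3 and 1.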

How the data were processed

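Droplet libraries (10x Genomics 3′ kit) were made from sorted epithelial cells, 1 per genotype. The deposited counts are UMIs per gene and barcode, which the authors made with Cell Ranger and did not normalize. Per the file headers the version was 4 for WT and 6.0.1 for MG53-TG, and per the labels the build was mm10. The WT table holds all barcodes and the MG53-TG table those with at least 500 UMIs, so version, barcode list and genotype cannot be told apart. Kept barcodes had at least 1354 UMIs, 200 genes and at most 25% mitochondrial UMIs. Scrublet's own threshold marked 1 and 2 cells, so the highest-scoring 0.8% per 1000 cells were removed as doublets (438 and 212). Cells were clustered jointly with scanpy 1.11.5 and leidenalg 0.10.2 (30 components, 15 neighbours, resolution 1) on 1991 of 2000 variable genes, the iron genes being left out, which gave 25 clusters. A cluster was named from marker lists with at least 3 markers found. UMIs were summed per type and library, and a ratio between libraries needed 30 UMIs over both and a type 50 cells in each. Ratios carry exact conditional binomial intervals, and the interval step was tested on simulated counts. Further genes named are those of 7 pathway lists past 1.5-fold in the epithelial sum (at most 8 per direction) and the 2 closest in pattern to each gene, and any others were chosen after their values were seen. The study's own cell type calls and its normalization were not used. How many alternatives kept each ratio past 1.5-fold was counted. The members, gene lists and naming rules were chosen with earlier results of these data known.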

Additional observations from a re-analysis of the deposited data

Results flagged for a closer look

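The differences between cell types given here were not tested. Slc11a2 went past 1.5-fold in opposite directions by type: its log2 ratio of MG53-TG over WT was 0.79 in tuft-like cells, -1.13 in enteroendocrine-like cells and -0.88 in T cell-like cells, on 15 and 39, 30 and 12, and 38 and 10 UMIs in WT and MG53-TG. Tfrc was at -1.34 in enterocyte-like cells and 0.77 in T cell-like cells, where dividing lymphocytes use the same receptor. The intervals for Slc11a2 in tuft-like (-0.11 to 1.75) and T cell-like cells (-2.05 to 0.16) span 0, as does that for Tfrc in T cell-like cells (-0.0064 to 1.53). Hmox1 was at 0.79 in absorptive progenitor-like cells, -0.59 in goblet-like cells (-1.58 to 0.39, which spans 0) and -1.06 in tuft-like cells. Without doublet removal, Slc11a2 in tuft-like cells was at -0.034, Tfrc in T cell-like cells at -0.15 and Hmox1 in absorptive progenitor-like cells at 0.44. With a higher minimum of UMIs per cell, Slc11a2 was at -0.17 in enteroendocrine-like and -0.53 in T cell-like cells, both within 1.5-fold. Hmox1 in goblet-like and Tfrc in enterocyte-like cells also came within 1.5-fold, each under 4 alternatives. Each is given because the ratio passed 1.5-fold one way in 1 type and the other way in another, and each type gives 1 value per library.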

How the results depend on the processing

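The count of genes past 1.5-fold in the epithelial sum was 1 in the main analysis, 2 with median-of-ratios size factors (Slc40a1 joined Cybrd1) and 3 at a smaller fold size (Slc40a1 and Tfrc joined). With the types weighted at the WT mix it was 0, Cybrd1 being at -0.38. It was 1, Cybrd1, under the other alternatives run, the 15% mitochondrial limit and the removal of barcodes found in both libraries included. The count of genes higher in enterocyte-like than stem-like cells was 4, and 7 with the 50% mitochondrial limit, when Slc11a2, Cybrd1 and Hmox1 joined. Under the others it was 3 to 5. Ratios within the cluster with the highest Slc11a2 were recomputed only without mitochondrial UMIs and are not counted here. Of 886 single-gene ratios recomputed, 765 stayed within the main counting interval and 9 that were past 1.5-fold changed sign. In enterocyte-like cells these were Slc40a1, at 0.38 without doublet removal, and Slc46a1, at 0.062 with the 50% limit and 0.69 with the 15% limit. In ileal enterocyte-like cells they were Slc40a1, at 0.36 at resolution 0.6, and Epas1, at 0.098 with the 50% limit and 0.44 with a higher minimum of UMIs per cell. The others were Slc40a1 in goblet-like cells, at 0.14 with the 15% limit, and, without doublet removal, Slc11a2 in tuft-like cells, at -0.034, and Tfrc in T cell-like cells, at -0.15. The cause was not tested. Between median-of-ratios factors and CPM the median of all genes shifted by 0.09 in the epithelial sum and by 0.28 in Paneth-like cells, which took Fth1 there from 0.0021 to -0.28 and Ftl1 from 0.22 to -0.06. In the other types it shifted by less than 0.1. No paired analysis was possible because each genotype has 1 library. The alternatives that use the 15% limit, the WT mix of types or no shared barcodes were chosen after seeing the data.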

Other observations

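Markers of blood cells also differed between the epithelial sums. The summed level of 7 erythroid markers was 13.9 and 0.922 CPM in WT and MG53-TG, and that of 7 B and plasma cell markers 16.4 and 5.11 CPM. All 7 erythroid markers had UMIs in both libraries, and their part in the levels of the iron genes was not tested. Of 7 neutrophil markers, 3 had a UMI in the WT sum and 2 in the MG53-TG sum, with 3 and 4 UMIs in all. S100a8, S100a9 and Ly6g had none in either. Lcn2, which neutrophils also make, had 2600 WT and 616 MG53-TG UMIs among epithelial cells, and its source was not tested. Lcn2 stood at 57.8 and 31.5 CPM in WT and MG53-TG stem-like cells and at 0.872 and 0.439 CPM in enterocyte-like cells. Fabp6, an ileal bile acid binder, was at 343 and 140.2 CPM in WT and MG53-TG epithelial cells, and the summed level of 9 distal small intestine genes was 1016 and 839 CPM, against 1060 and 1194 CPM for 9 proximal genes.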
